A study of Mus musculus with 10 samples.

Results

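TRAJ21, TRAJ22, TRAJ24 and TRAJ26 are joining (J) genes of the mouse T cell receptor (TCR) alpha locus. Their rearranged transcripts were picked out of 10 clonotype tables by the last residues of the CDR3, the loop that V and J segments build where they meet. A CDR3 ending in VLYF was taken as TRAJ21, in WQLIF as TRAJ22, in GKLQF as TRAJ24 and in QGLTF as TRAJ26. The V and J names in the tables were not used, because every alpha chain was listed there under a beta chain gene name. The rule found 31650 of 387286 entries, holding 79974 of 754060 counts, or 10.6% of all counts and 16.6% of the 481889 counts of alpha chains. TRAJ21 had 10462 entries and 24240 counts, TRAJ22 had 8482 and 24464, TRAJ24 had 3133 and 8276, and TRAJ26 had 9573 and 22994.

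The libraries were made from splenic regulatory T (Treg) cells of 2 strains, with 5 libraries each. CNS4KO mice lacked the CNS4 enhancer of Foxp3, whose product is the transcription factor that Treg cells depend on, and CNS4Flox mice carried the enhancer flanked by loxP sites. Cells were left untreated and went straight from isolation to RNA extraction, and the purpose given for the series was to compare repertoire diversity. The labels name no Cre allele, age or sex, do not say whether each library is 1 mouse, and give no number of cells, so p-values here measure the spread between libraries. Only CDR3s were read, so neither the loss of the enhancer nor Foxp3 or other Treg markers could be checked, and more cells and more RNA per cell cannot be told apart.

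An alpha chain is made by joining 1 of many V genes to 1 of many J genes, with bases trimmed from both ends and others added between them. There is no D gene, so trimming and addition at this single junction set the CDR3. Different junctions can encode the same amino acids, and CDR3s that many junctions can make are often found in several animals. The J gene fixes the last residues of the loop, which lies over the peptide when the receptor binds its ligand.

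RefSeq's annotation of GRCm38 placed all 4 genes on chromosome 14 as J segments: TRAJ26 at chr14:54194490-54194549, TRAJ24 at chr14:54195645-54195700, TRAJ22 at chr14:54197248-54197307 and TRAJ21 at chr14:54198790-54198846. TRAJ26 to TRAJ21 spanned 4357 bases and held 6 of the 60 annotated TRAJ genes. The commonest 3′ ends of the CDR3s in the deposited tables are given 5′ to 3′, because they are the part each gene gives to the loop. Capitals mark the bases that encode the residues of the rule.
TRAJ21: atgtctaattacaacGTGCTTTACTTC
TRAJ22: gcatcttctggcagcTGGCAACTCATCTTT
TRAJ24: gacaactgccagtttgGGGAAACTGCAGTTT
TRAJ26: cgaaataactatgccCAGGGATTAACCTTC
These ends were 27, 30, 31 and 30 bases long. They were read from the 3′ end inward, adding a base while at least 50% of the clonotypes that still matched carried it. The full end need not be shared by most clonotypes of a gene, and its outermost bases may not all be germline. The bases under the rule were nearly invariant, with silent differences in 14 TRAJ21, 2 TRAJ22, 2 TRAJ24 and 3 TRAJ26 clonotypes, at most 0.135% of a gene's clonotypes. The residue just inward of the rule (N, S, L and A in that order of genes) also matched in 99.2% of TRAJ21, 99.6% of TRAJ22, 99.8% of TRAJ24 and 99.7% of TRAJ26 entries. Entries that began with CASS, a usual beta chain start, numbered 20, 25, 2 and 3 for the 4 genes in that order.

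Depth was 69836 to 95853 counts per CNS4KO library and 61793 to 79963 per CNS4Flox library. Alpha chains held 40064 to 68188 counts in CNS4KO and 40522 to 50023 in CNS4Flox libraries, and the 4 genes together 7114 to 10133 and 6073 to 8486. The CDR3 pattern of invariant natural killer T cells, another T cell type a sort could hold, made up 0.171 to 0.282% of alpha counts in CNS4KO and 0.118 to 0.268% in CNS4Flox libraries (exact permutation p = 0.222). CNS4KO 5 and CNS4Flox 3 shared 631 nucleotide clonotypes of the 4 genes, a Jaccard index (shared over all clonotypes of both) of 0.108. The other 44 pairs of libraries shared 365 to 716, with indices of 0.0697 to 0.103, so this pair had the highest index although it joined both strains. Results that change without the pair are given both ways.

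Sequences of common and of expanded CDR3s show how the loops were built. In the lines that follow, capitals mark the bases that match the gene's commonest 3′ end given above. Lower case marks the bases before that match, from V and the junction. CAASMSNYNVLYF, the TRAJ21 CDR3 with the highest mean share and the most nucleotide variants, was spelled in 26 ways. Its 4 commonest spellings matched all 27 bases of the commonest TRAJ21 3′ end and differed only in the first 12 bases.
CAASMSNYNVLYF 1: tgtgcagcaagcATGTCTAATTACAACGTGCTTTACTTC
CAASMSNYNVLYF 2: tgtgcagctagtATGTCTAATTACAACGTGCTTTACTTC
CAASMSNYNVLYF 3: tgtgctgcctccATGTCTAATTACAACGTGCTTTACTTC
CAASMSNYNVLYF 4: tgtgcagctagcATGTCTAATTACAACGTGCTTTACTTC
The first spelling held 250 of the 354 counts of this CDR3 and was found in all 10 libraries, while the fourth held 13 counts in 1 library.

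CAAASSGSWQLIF, the TRAJ22 CDR3 with the highest mean share, is shown because several spellings were common side by side. All 30 bases of the commonest TRAJ22 3′ end were matched, and 9 bases lay before them.
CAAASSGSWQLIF 1: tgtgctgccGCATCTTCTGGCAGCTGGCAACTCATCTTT
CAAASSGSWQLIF 2: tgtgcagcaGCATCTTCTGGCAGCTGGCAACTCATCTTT
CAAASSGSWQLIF 3: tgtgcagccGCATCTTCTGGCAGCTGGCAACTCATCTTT
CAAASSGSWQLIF 4: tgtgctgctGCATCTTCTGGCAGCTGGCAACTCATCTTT
These 4 held 361, 328, 129 and 129 of its 1031 counts, in 9, 10, 9 and 7 libraries.

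The next lines give the leading spelling of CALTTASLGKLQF, the TRAJ24 CDR3 with the highest mean share over the libraries. They also give the single spelling of each of 2 expanded TRAJ24 clonotypes of 45 bases. Each of these 2 was seen in 1 library alone and had more counts in total than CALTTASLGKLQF (265 and 342 against 241).
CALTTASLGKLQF 1: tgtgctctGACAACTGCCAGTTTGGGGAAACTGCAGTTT
TRAJ24 clonotype of CNS4KO 5: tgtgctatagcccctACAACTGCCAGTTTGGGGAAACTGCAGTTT
TRAJ24 clonotype of CNS4Flox 3: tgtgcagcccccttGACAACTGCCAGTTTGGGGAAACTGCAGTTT
The expanded pair had 15 and 14 bases before the J match, whereas the common CDR3 had 8.

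The last set holds the leading spellings of 4 expanded clonotypes of the other genes and, for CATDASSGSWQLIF and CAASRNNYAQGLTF, the second spelling that most libraries carried.
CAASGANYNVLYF 1: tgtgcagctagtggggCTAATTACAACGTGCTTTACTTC
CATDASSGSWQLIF 1: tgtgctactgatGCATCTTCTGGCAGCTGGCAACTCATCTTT
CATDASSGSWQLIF 2: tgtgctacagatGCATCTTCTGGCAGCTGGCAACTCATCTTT
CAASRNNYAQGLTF 1: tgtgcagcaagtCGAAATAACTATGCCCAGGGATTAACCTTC
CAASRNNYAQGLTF 2: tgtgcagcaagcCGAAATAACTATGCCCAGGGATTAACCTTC
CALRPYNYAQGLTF 1: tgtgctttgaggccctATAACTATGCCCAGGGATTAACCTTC
The first spelling of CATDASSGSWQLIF held 707 counts in 2 libraries and the second 40 counts in 6. The first spelling of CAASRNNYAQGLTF held 914 counts in 2 libraries and the second 29 counts in 9.

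How much of the alpha repertoire used each gene did not pass the test between the strains. Among the 31 J genes tested (10 counts or more in 5 or more libraries), TRAJ21 ranked 5, TRAJ22 ranked 6, TRAJ26 ranked 9 and TRAJ24 ranked 24 by mean share of alpha counts, and the median gene had 2.58%. TRAJ21 made up 4.49, 4.39, 4.85, 5.81 and 4.39% of alpha counts in CNS4KO 1 to 5, against 5.09, 4.81, 5.59, 5.92 and 5.54% in CNS4Flox 1 to 5. CNS4KO 3 and 4 lay inside the CNS4Flox range and the other CNS4KO libraries below it.
TRAJ22 made up 5.59, 4.59, 5.16, 5.55 and 4.59% in CNS4KO libraries, against 5.47, 4.40, 4.83, 5.24 and 5.23% in CNS4Flox libraries, and the ranges overlapped almost fully. TRAJ24 was the least used, at 1.02, 1.34, 1.87, 1.28 and 2.46% in CNS4KO libraries, against 1.68, 1.85, 2.70, 1.53 and 1.59% in CNS4Flox libraries. TRAJ26 made up 3.75, 5.41, 6.36, 5.11 and 4.63% in CNS4KO libraries, against 5.06, 3.85, 4.62, 4.70 and 4.60% in CNS4Flox libraries. The CNS4KO range ran below the CNS4Flox range for TRAJ24 and past both of its ends for TRAJ26. The 95% Wilson interval of a single share was 0.151 to 0.460 percentage points wide, for counting error only.

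**Figure D1:**
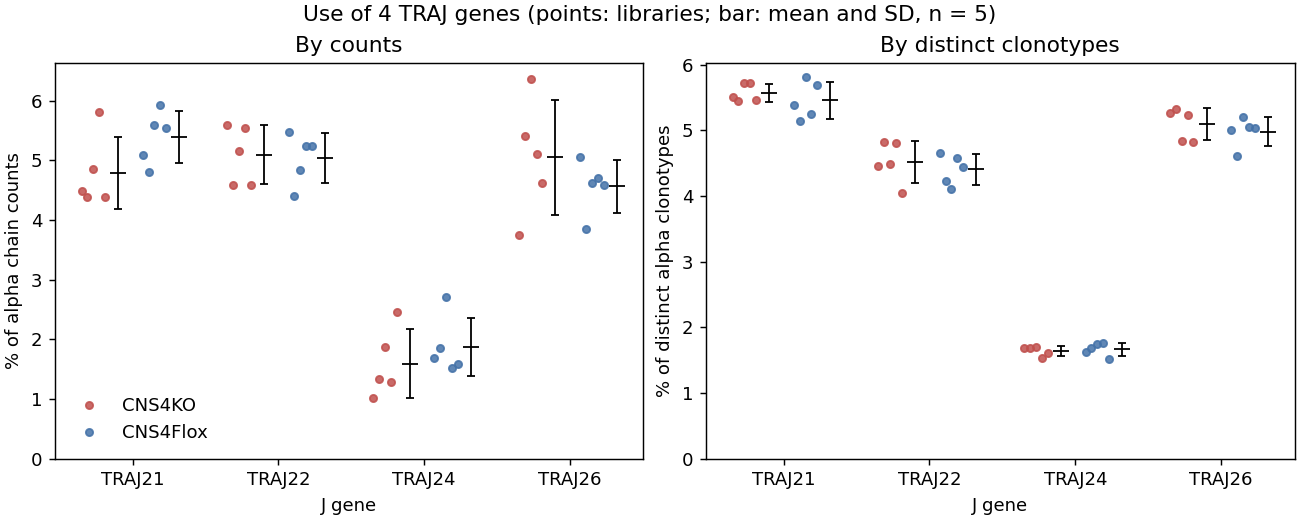
Share of alpha chain counts (left) and of distinct alpha clonotypes (right) that used each J gene. Points are libraries, bars the mean and SD of 5. The strains overlap for every gene, and the spread between libraries is narrower for distinct clonotypes.

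The log2 fold change of CNS4KO over CNS4Flox was −0.17 ± 0.10 (SE) for TRAJ21, 0.02 ± 0.09 for TRAJ22, −0.23 ± 0.21 for TRAJ24 and 0.15 ± 0.12 for TRAJ26. Adjusted p-values of edgeR's quasi-likelihood test over the 31 genes were 0.572, 0.951, 0.755 and 0.740. None of the 31 genes passed (0%), 2 had an unadjusted p below 0.05, and DESeq2 called 0. With 1 library left out at a time, the log2 fold change of TRAJ24 lay between −0.44 (without CNS4KO 5) and −0.06 (without CNS4Flox 3), and that of TRAJ26 between 0.05 (without CNS4KO 3) and 0.24 (without CNS4KO 1). TRAJ24 also came to −0.11 without CNS4KO 1, and TRAJ26 to 0.09 without CNS4Flox 2.

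Each distinct nucleotide clonotype counted once, the shares came closer together. TRAJ21 averaged 5.57 ± 0.14% of distinct alpha clonotypes in CNS4KO and 5.46 ± 0.28% in CNS4Flox libraries (SD, n = 5 each). The averages were 4.53 ± 0.32% and 4.41 ± 0.23% for TRAJ22, 1.64 ± 0.07% and 1.67 ± 0.10% for TRAJ24, and 5.10 ± 0.25% and 4.98 ± 0.22% for TRAJ26, CNS4KO first. The log2 fold changes lay between −0.02 and 0.03 with edgeR adjusted p-values of 0.898 to 0.904, and 1 of the 31 genes passed (3.23%), none of these 4; DESeq2 called 0 of the 31, and no gene but that one had an unadjusted edgeR p below 0.05. TRAJ24 in CNS4KO 5 and CNS4Flox 3, the highest by counts, held 1.62 and 1.75% of distinct clonotypes, inside the range of the other libraries.

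The number of different clonotypes was lower in CNS4KO libraries once each gene was brought to the same counts. At 1959 counts, TRAJ21 had 749, 797, 791, 762 and 958 distinct nucleotide clonotypes in CNS4KO 1 to 5, against 1166, 1020, 947, 911 and 1017 in CNS4Flox 1 to 5. CNS4KO 5 reached into the CNS4Flox range, and the other CNS4KO libraries lay below it.
At 1792 counts, TRAJ22 had 513, 653, 570, 628 and 658 in CNS4KO libraries, against 914, 839, 691, 816 and 786 in CNS4Flox libraries, with no overlap. At 514 counts, TRAJ24 had 246, 225, 185, 226 and 179 in CNS4KO libraries, against 303, 258, 187, 308 and 257 in CNS4Flox libraries. The TRAJ24 groups overlapped through CNS4Flox 3, whose value lay among the CNS4KO values.
At 1567 counts, TRAJ26 had 697, 591, 485, 654 and 718 in CNS4KO libraries, against 932, 913, 824, 876 and 878 in CNS4Flox libraries, again with no overlap.

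The ratio of the means, CNS4KO over CNS4Flox, was 0.801 for TRAJ21, 0.747 for TRAJ22, 0.808 for TRAJ24 and 0.711 for TRAJ26. In exact permutation tests over all assignments of the libraries to the strains, whose smallest p is 0.00794, TRAJ21 gave p = 0.0238 (adjusted over 31 genes, 0.0284), TRAJ22 and TRAJ26 each 0.00794 (0.0164), and TRAJ24 0.0794 (0.0794). So 3 of the 4 genes passed, while 28 of all 31 did (90.3%), all lower in CNS4KO, with a median ratio of 0.745, so the share of these genes was no higher than that of the whole set. The groups did not overlap in 15 of the 31 genes. Without CNS4KO 5 and CNS4Flox 3, all 4 genes passed (exact permutation p = 0.0286 each, the smallest that 4 against 4 libraries allow). With all counts kept, all 4 also passed (adjusted exact permutation p = 0.0434 to 0.0447), and TRAJ24 did not overlap, with a ratio of 0.782. For these settings the share over all 31 genes is not given here, and 28 of the 31 passed at equal counts. With clonotypes of a single count left out, none of the 4 passed, and the ratios were 0.857 to 0.890 (exact permutation p = 0.103 to 0.167).

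Clone sizes behind these numbers were uneven. Clonotypes with a single count made up 59.0 ± 4.0% of TRAJ21 clonotypes in CNS4KO and 63.7 ± 3.0% in CNS4Flox libraries, and 58.0 ± 3.0% and 65.4 ± 3.6% of TRAJ26 clonotypes (SD, n = 5 each, at full depth). Mean counts per clonotype were 2.67 ± 0.35 in CNS4KO and 2.09 ± 0.25 in CNS4Flox libraries for TRAJ21, 3.55 ± 0.78 and 2.42 ± 0.29 for TRAJ22, 2.96 ± 0.82 and 2.39 ± 0.75 for TRAJ24, and 3.08 ± 0.63 and 1.93 ± 0.16 for TRAJ26. These means are not adjusted for depth, and the part of depth in them was not tested. Mean counts per library were 2461 in CNS4KO and 2387 in CNS4Flox for TRAJ21, and 2661 and 2232 for TRAJ22. They were 824 and 831 for TRAJ24 and 2576 and 2023 for TRAJ26. Alpha counts averaged 52146 in CNS4KO and 44232 in CNS4Flox libraries (exact permutation p = 0.151).

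The share of a gene's counts in its 10 largest clonotypes, at equal counts, showed where single clones weighed most. For TRAJ26 it was 14.1, 37.5, 49.2, 29.3 and 16.2% in CNS4KO 1 to 5, against 12.9, 10.9, 15.9, 12.3 and 13.1% in CNS4Flox 1 to 5. CNS4KO 2, 3 and 4 lay far above every CNS4Flox library, and CNS4KO 1 fell inside the CNS4Flox range.
For TRAJ22 it was 43.6, 24.7, 29.4, 26.7 and 24.0% in CNS4KO libraries, against 12.8, 16.3, 29.9, 15.3 and 15.5% in CNS4Flox libraries. CNS4Flox 3 was the one CNS4Flox library inside the CNS4KO range. TRAJ21 gave 18.7, 24.1, 15.02, 27.4 and 14.9% in CNS4KO libraries, against 7.63, 12.7, 15.7, 20.4 and 14.95% in CNS4Flox libraries. TRAJ24 gave 21.9, 29.2, 45.2, 29.8 and 50.1% in CNS4KO libraries, against 16.9, 29.6, 51.9, 16.6 and 27.6% in CNS4Flox libraries. Both genes overlapped widely between the strains.

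**Figure D2:**
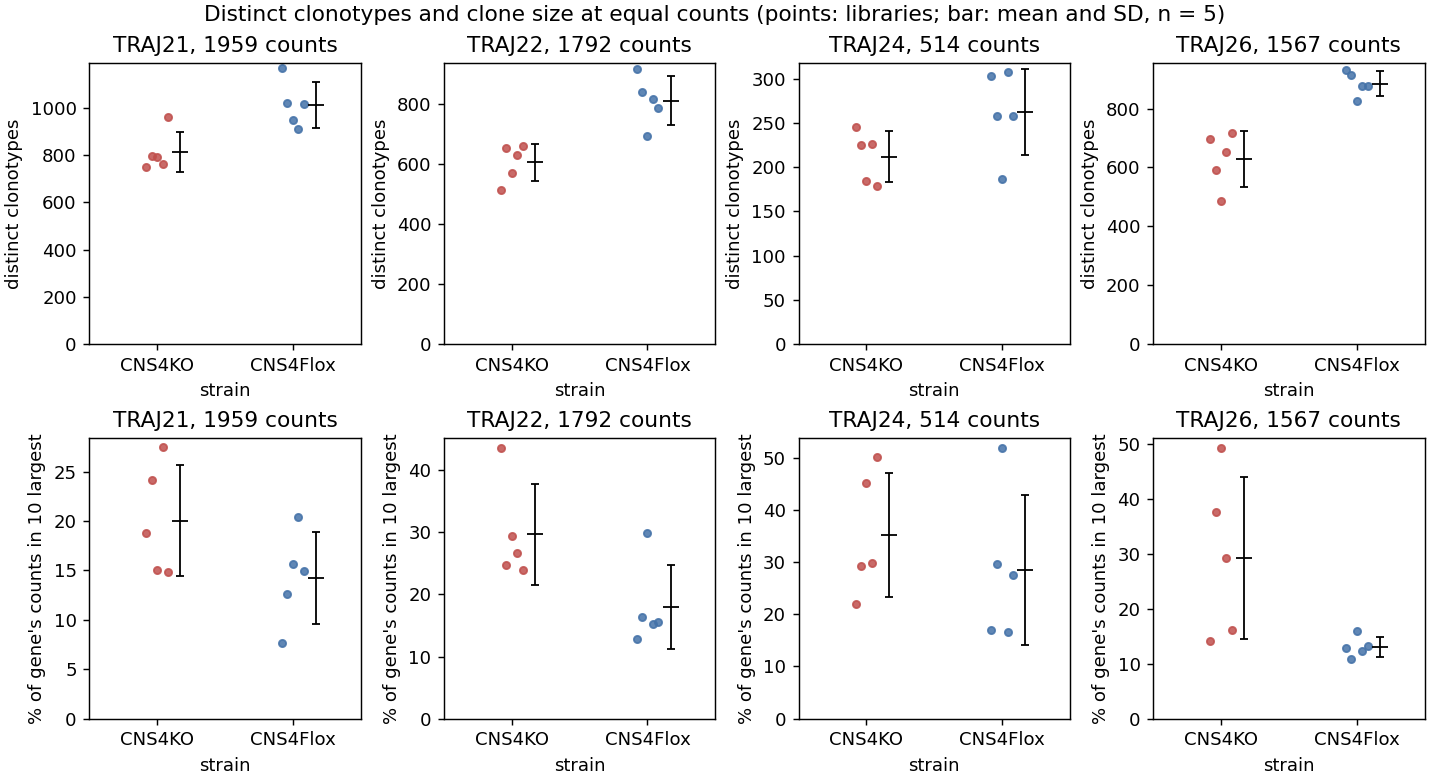
Distinct nucleotide clonotypes (top) and percent of the gene's counts in its 10 largest clonotypes (bottom) after random thinning to the counts in each title. Points are libraries, bars the mean and SD of 5. For TRAJ22 and TRAJ26 every CNS4KO library has fewer clonotypes than every CNS4Flox library, and in the bottom row single libraries stand high.

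The exact permutation p for this share was 0.0159 for TRAJ26, 0.0397 for TRAJ22, 0.135 for TRAJ21 and 0.421 for TRAJ24, and the adjusted values were 0.0820, 0.0879, 0.190 and 0.466. None of the 31 genes passed (0%), although 15 had an unadjusted p below 0.05 and the share was higher in CNS4KO for all 31. For TRAJ26 the call depended on the setting: limma across the 31 genes gave an adjusted p of 0.0401, and the share of the 20 largest clonotypes, 36.5% in CNS4KO and 17.9% in CNS4Flox libraries, gave an adjusted exact permutation p of 0.0351. Without CNS4KO 5 and CNS4Flox 3, the strains did not overlap for TRAJ22 (24.7 to 43.6% against 12.8 to 16.3%). Nor did they for TRAJ26 (14.1 to 49.2% against 10.9 to 13.1%). Both gave an exact permutation p of 0.0286 (adjusted 0.0738), and TRAJ21 and TRAJ24 still overlapped. With all libraries, 3 of the 31 genes did not overlap.

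The largest clonotypes were mostly those of one library. The first spelling of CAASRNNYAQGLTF held 913 counts in CNS4KO 3, 30.3% of that library's TRAJ26 counts, and 1 count in CNS4Flox 2. All spellings together had 12, 6, 918, 23 and 13 counts in CNS4KO libraries, against 10, 11, 14, 14 and 13 in CNS4Flox libraries. The CDR3 was thus present in every library and large in one.
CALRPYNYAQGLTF, also of TRAJ26, had 421 counts in CNS4KO 2, 15.6% of the gene there, and 5 counts of another spelling in CNS4KO 4, with 0 counts in the other 8 libraries. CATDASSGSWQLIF, of TRAJ22, had 692, 17, 1, 17 and 9 counts in CNS4KO libraries, against 10, 5, 3, 7 and 12 in CNS4Flox libraries. Its first spelling made up all 692 counts in CNS4KO 1, 18.1% of the gene, and 15 of the counts in CNS4KO 4, and was in no CNS4Flox library.
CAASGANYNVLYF, of TRAJ21, had 246 counts in CNS4KO 4, all of its first spelling and 10.6% of the gene, and 0 to 6 counts in each of the other libraries.

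In CNS4KO libraries the largest clonotypes of TRAJ21, TRAJ22 and TRAJ26 held more of the gene on average; these values were not tested. The largest TRAJ26 clonotype held 11.2 ± 11.96% of the gene's counts in CNS4KO and 3.604 ± 1.744% in CNS4Flox libraries, the largest TRAJ22 clonotype 10.2 ± 5.9% and 3.82 ± 2.21%, and the largest TRAJ21 clonotype 5.72 ± 3.16% and 3.79 ± 2.03% (SD, n = 5 each). The SD of the CNS4KO values for TRAJ26 exceeded their mean.
TRAJ24 differed in that its largest clonotype of all was in a CNS4Flox library. The printed clonotype of CNS4KO 5 held 265 counts, 19.6% of that library's TRAJ24, and that of CNS4Flox 3 held 342 counts, 27.3%. Each had 0 counts in the other 9 libraries. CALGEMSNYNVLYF, of TRAJ21, had 181 of its 183 counts in 1 spelling in CNS4Flox 5. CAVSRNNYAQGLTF, of TRAJ26, had a spelling found in the pair with the highest overlap alone, with 32 counts in CNS4KO 5 and 141 in CNS4Flox 3.

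Amino acid CDR3s were then compared one by one. Of 7176 alpha CDR3s detected in at least 5 libraries, 1278 belonged to the 4 genes: 418 of TRAJ21, 368 of TRAJ22, 111 of TRAJ24 and 381 of TRAJ26. None of these passed edgeR's quasi-likelihood test, with a smallest adjusted p of 0.0634, while 9 of all 7176 passed (0.125%). At an unadjusted p below 0.05 there were 118 of the 1278, 52 higher and 66 lower in CNS4KO, which is 9.23% of them beside 8.64% of all alpha CDR3s. DESeq2 gave an adjusted p to 237 of the 1278 and called 1 of them. With 1 library left out, edgeR called 5 of 1136 CDR3s of the 4 genes without CNS4KO 3 and 3 of 1114 without CNS4KO 1. It called 1 of 1106 without CNS4KO 4, 1 of 1094 without CNS4KO 5 and 1 of 1054 without CNS4Flox 1. Without any of the other libraries it called 0. The shares over all alpha CDR3s are not given here for DESeq2 or for these settings.
The median log2 fold change was −0.28 for TRAJ21, −0.32 for TRAJ22, −0.36 for TRAJ24 and −0.40 for TRAJ26, beside −0.32 over all alpha CDR3s. The expanded CDR3s had large folds with wide errors: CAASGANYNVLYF 4.35 ± 1.20, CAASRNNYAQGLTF 3.85 ± 1.06 and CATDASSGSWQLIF 3.72 ± 1.04 (log2, SE), with edgeR adjusted p-values of 0.115, 0.115 and 0.117. Each of these folds rested on 1 CNS4KO library. With CDR3s in as few as 3 libraries tested, 18 of 2519 CDR3s of the 4 genes passed edgeR (0.715%), 13 higher and 5 lower in CNS4KO, beside 111 of 15163 alpha CDR3s (0.732%).

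The CDR3s most common over the libraries did not pass the test. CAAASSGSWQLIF held 1.97, 4.10, 2.95, 3.55 and 5.14% of TRAJ22 counts in CNS4KO libraries, against 4.15, 3.01, 10.0045, 3.91 and 4.62% in CNS4Flox libraries. The log2 fold change was −0.55 ± 0.83 (SE, edgeR adjusted p = 0.900). CNS4Flox 3 was highest, and the other 9 libraries lay between 1.97 and 5.14%.
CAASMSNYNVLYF held 0.849, 0.866, 0.740, 0.558 and 2.07% of TRAJ21 counts in CNS4KO libraries, against 0.992, 1.28, 0.8501, 4.79 and 1.62% in CNS4Flox libraries (log2 fold change −1.17 ± 0.84, edgeR adjusted p = 0.743). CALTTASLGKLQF held 0.452 to 8.08% of TRAJ24 counts in CNS4KO and 0.878 to 6.15% in CNS4Flox libraries. For these 3 CDR3s the libraries of one strain lay further apart than the means of the strains. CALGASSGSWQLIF of TRAJ22 averaged 2.74 ± 1.51% in CNS4KO and 2.57 ± 0.94% in CNS4Flox libraries (SD, n = 5 each), and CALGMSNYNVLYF of TRAJ21 1.18 ± 0.87% and 0.940 ± 0.158%.

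CDR3 length differed from one J gene to the next and did not pass the test between strains. Mean length over distinct clonotypes was 12.87, 12.96, 12.97, 12.92 and 12.89 residues for TRAJ21 in CNS4KO 1 to 5, against 12.83, 12.86, 12.87, 12.92 and 12.89 in CNS4Flox 1 to 5. TRAJ26 averaged 13.30 ± 0.04 in CNS4KO and 13.29 ± 0.04 in CNS4Flox libraries, TRAJ22 13.86 ± 0.07 and 13.84 ± 0.02, and TRAJ24 14.40 ± 0.06 and 14.38 ± 0.05 (SD, n = 5 each). The exact permutation p was 0.0952 for TRAJ21 and 0.532 to 0.706 for the other 3, with adjusted values of 0.738 to 0.820. None of the 31 genes passed (0%) and none had an unadjusted exact p below 0.05.
Over the 10 libraries the ranges of the 4 genes did not meet: 12.83 to 12.97 residues for TRAJ21, 13.22 to 13.35 for TRAJ26, 13.74 to 13.95 for TRAJ22 and 14.33 to 14.49 for TRAJ24. The order TRAJ21, TRAJ26, TRAJ22, TRAJ24 therefore held in each library.

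**Figure D3:**
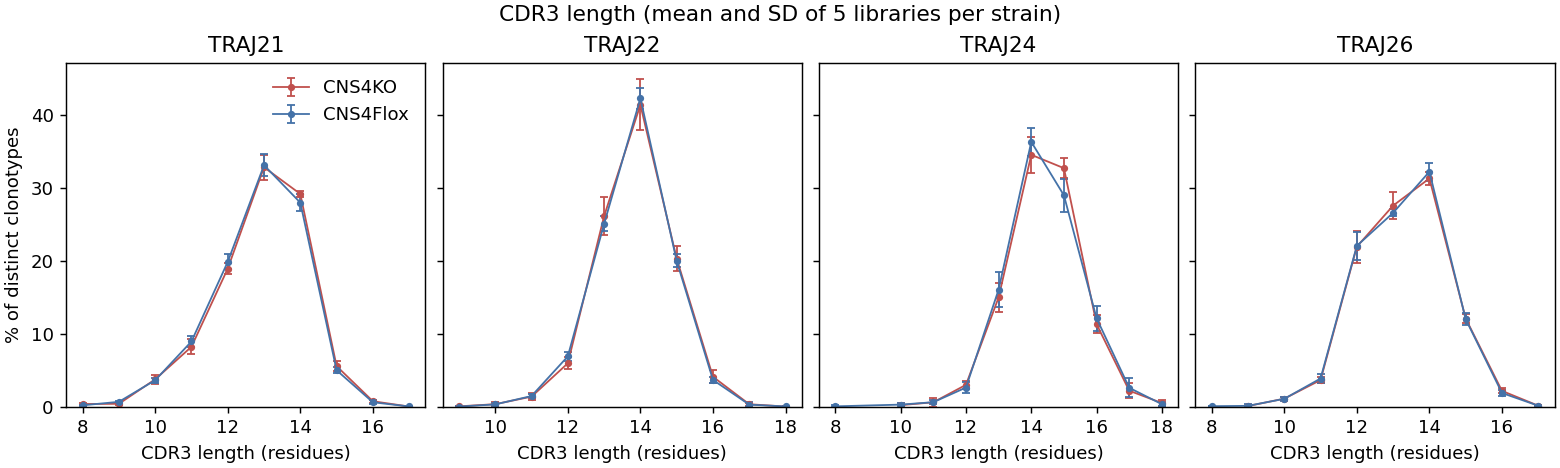
CDR3 length of distinct clonotypes, as percent of the gene's clonotypes at each length in residues. Points are means of 5 libraries and bars their SD. TRAJ21 peaks at 13 residues and the other genes at 14, and the curves of the strains run together.

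The commonest length was 13 residues for TRAJ21, with 32.8 ± 1.7% of clonotypes in CNS4KO and 33.1 ± 1.5% in CNS4Flox libraries. It was 14 for TRAJ22, with 41.4 ± 3.5% and 42.3 ± 1.4%, for TRAJ24, with 34.5 ± 2.5% and 36.3 ± 1.9%, and for TRAJ26, with 31.3 ± 0.9% and 32.2 ± 1.2% (SD, n = 5 each). TRAJ22 had the sharpest peak, and TRAJ26 spread over 12, 13 and 14 residues. The shortest loops had 7 residues (TRAJ21 and TRAJ26) and the longest 24 (TRAJ24 and TRAJ26).
The J genes differed in the bases they left in the loop. The match to the 3′ end averaged 24.2 bases in TRAJ21, 25.1 in TRAJ26, 27.4 in TRAJ22 and 29.0 in TRAJ24 clonotypes over the 10 libraries, the same order as length. The bases that remained, from V and the junction, averaged 14.5, 14.8, 14.2 and 14.2, a narrower range. Matched bases did not pass the test between strains for any of the 4 (adjusted exact permutation p = 0.820 to 0.968), nor for any of the 31 genes (0%), of which 1 had an unadjusted p below 0.05.
The V side was read from the first 3 residues. CAA and CAL were the commonest starts of every gene, with CAA leading in TRAJ21, TRAJ22 and TRAJ24 at 30.9 ± 3.1, 32.0 ± 2.5 and 31.7 ± 3.1% of distinct clonotypes (SD over 10 libraries). In TRAJ26 CAL led, at 35.9 ± 1.4% in CNS4KO and 32.8 ± 0.9% in CNS4Flox libraries, while CAA had 24.8 ± 2.7% and 27.7 ± 1.3% (SD, n = 5 each; not tested). The means of the other 3 genes had the same directions, but the strains overlapped for both starts in each. Mean CAA shares were 29.0 ± 2.9 against 32.7 ± 2.0% in TRAJ21, 31.0 ± 2.7 against 33.0 ± 2.1% in TRAJ22 and 30.0 ± 2.7 against 33.5 ± 2.7% in TRAJ24, CNS4KO first. Mean CAL shares were 27.4 ± 1.1 against 26.8 ± 1.8%, 30.9 ± 1.1 against 29.5 ± 1.7% and 28.3 ± 1.4 against 27.1 ± 2.9% in that order of genes. These differences were not tested, and values for the other J genes are not given here.

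Nucleotide variants per CDR3, the number of distinct nucleotide clonotypes divided by that of amino acid CDR3s at equal counts, were slightly lower in CNS4KO. TRAJ21 had 1.265, 1.253, 1.263, 1.272 and 1.227 in CNS4KO 1 to 5, against 1.385, 1.308, 1.300, 1.287 and 1.313 in CNS4Flox 1 to 5. TRAJ26 had 1.238, 1.189, 1.159, 1.251 and 1.210 in CNS4KO libraries, against 1.309, 1.314, 1.276, 1.271 and 1.300 in CNS4Flox libraries. For both genes every CNS4KO value lay below every CNS4Flox value.
TRAJ22 had 1.320, 1.291, 1.295, 1.327 and 1.282 in CNS4KO libraries, against 1.421, 1.349, 1.322, 1.394 and 1.371 in CNS4Flox libraries, overlapping by a single library each. TRAJ24, with the fewest spellings, had 1.122, 1.097, 1.096, 1.136 and 1.103 in CNS4KO libraries, against 1.192, 1.175, 1.114, 1.130 and 1.121 in CNS4Flox libraries, and overlapped.
The exact permutation p was 0.00794 for TRAJ21 and TRAJ26, 0.0159 for TRAJ22 (adjusted 0.0308 each) and 0.0794 for TRAJ24 (adjusted 0.107). So 3 of the 4 genes passed, beside 16 of all 31 (51.6%), all lower in CNS4KO. The groups did not overlap in 8 of the 31.

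This difference was smaller at equal numbers of distinct clonotypes, and its cause was not tested. When each gene was thinned to the same number of distinct nucleotide clonotypes instead of the same counts, TRAJ21 averaged 1.259 in CNS4KO and 1.268 in CNS4Flox libraries, TRAJ22 1.314 and 1.308, TRAJ24 1.114 and 1.122, and TRAJ26 1.226 and 1.237. The exact permutation p was 0.365 to 0.778 and none of the 31 genes passed. At equal counts, 1 of the 4 genes passed without CNS4KO 2 and 1 without CNS4Flox 1. Without clonotypes of a single count none of the 4 passed, with ratios of 0.949 to 0.970. TRAJ21 still did not overlap there (exact permutation p = 0.00794, adjusted 0.0703), and its ratio was 0.949 beside 0.952 with all clonotypes. Without CNS4KO 5 and CNS4Flox 3 none passed either, but the ratios of TRAJ21, TRAJ22 and TRAJ26 were 0.955, 0.946 and 0.931, against 0.952, 0.9501 and 0.935 with all libraries. The strains did not overlap for these 3 genes (exact permutation p = 0.0286, the smallest that 4 against 4 libraries allow, and adjusted 0.0590). With all counts kept, 3 genes passed, but TRAJ24 (adjusted exact permutation p = 0.0492) in place of TRAJ22 (0.104). Apart from equal numbers of distinct clonotypes, the share over all 31 genes is not given here for these settings.

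**Figure D4:**
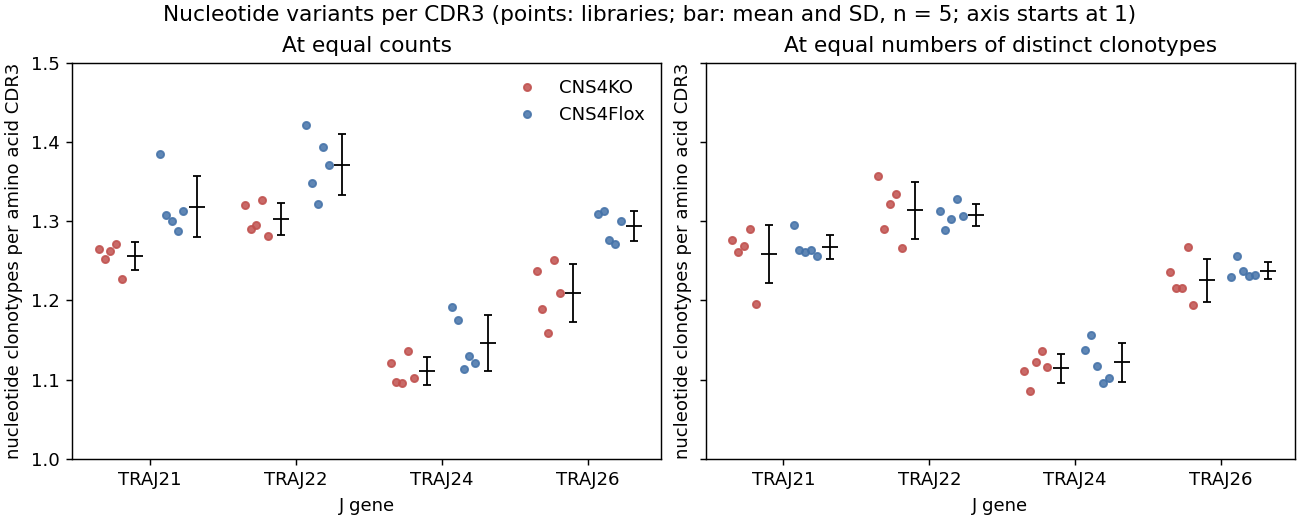
Distinct nucleotide clonotypes per amino acid CDR3 at equal counts (left) and at equal numbers of distinct nucleotide clonotypes (right). Points are libraries, bars the mean and SD of 5, and the axis starts at 1, the lowest possible value. CNS4KO lies lower in the left panel, and the strains overlap for all genes in the right panel.

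The CDR3s with the most spellings were found in 8 to 10 libraries. For TRAJ21 these were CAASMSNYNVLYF with 26 spellings and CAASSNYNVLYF with 21, for TRAJ22 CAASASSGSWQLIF with 23 and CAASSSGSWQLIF with 22, for TRAJ26 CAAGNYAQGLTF and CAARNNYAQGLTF with 20 each, and for TRAJ24 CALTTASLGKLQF with 16 and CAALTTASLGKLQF with 13. All 8 began with CAA or CAL. A single library held far fewer: at most 9 spellings of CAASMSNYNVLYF, in CNS4Flox 5, and at most 11 of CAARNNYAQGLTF, in CNS4Flox 1.
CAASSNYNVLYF also had an expanded spelling, with 114 of its 183 counts in CNS4Flox 4. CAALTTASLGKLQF had only 24 counts for its 13 spellings and so was diverse without being large.

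Sharing between libraries was counted over amino acid CDR3s at full depth. Of 3895 TRAJ21, 2756 TRAJ22, 1519 TRAJ24 and 3558 TRAJ26 CDR3s, 64.8, 60.2, 68.7 and 63.0% were found in 1 library. They held 19.8, 13.4, 36.1 and 20.3% of the genes' counts. The CDR3s of all 10 libraries numbered 53, 54, 8 and 50, and held 22.4, 34.4, 8.80 and 21.2% of counts. TRAJ22 was thus the most public and TRAJ24 the most private of the 4, and TRAJ24 also had the fewest counts in which a CDR3 could be found again.

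**Figure D5:**
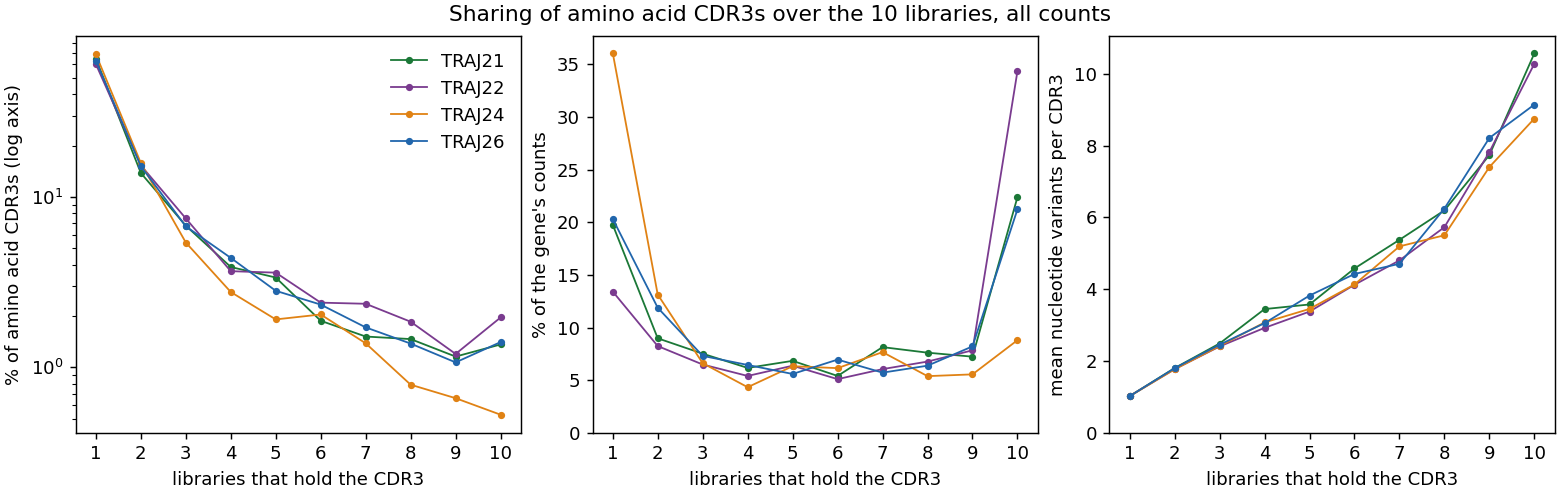
Amino acid CDR3s by the number of libraries that held them: percent of the gene's CDR3s (left, log axis), percent of its counts (middle) and mean nucleotide variants per CDR3 over all libraries (right). Each line is a gene. CDR3s found in all 10 libraries are few, hold up to 34.4% of counts, and average 8.75 to 10.6 spellings.

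Shared CDR3s differed from private ones in build. CDR3s found in all 10 libraries averaged 10.6 spellings in TRAJ21, 10.3 in TRAJ22, 8.75 in TRAJ24 and 9.14 in TRAJ26, whereas CDR3s of 1 library averaged 1.02 in each gene. More libraries give more chances to see another spelling, so this is a description with no test. Shared CDR3s were shorter, at 12.47 against 13.10 residues in TRAJ21, 13.76 against 14.11 in TRAJ22, 13.88 against 14.83 in TRAJ24 and 13.12 against 13.55 in TRAJ26, for all 10 libraries against 1. They also matched more J bases, with 25.3 against 22.8, 28.2 against 26.1, 30.1 against 28.3 and 26.0 against 24.0.

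The counts held by CDR3s of all 10 libraries overlapped between the strains. They made up 23.7 ± 3.8% of TRAJ21 counts in CNS4KO and 20.8 ± 2.8% in CNS4Flox libraries, 33.7 ± 4.0% and 34.6 ± 2.9% of TRAJ22, 10.01 ± 3.53% and 7.71 ± 3.19% of TRAJ24, and 22.9 ± 11.2% and 18.2 ± 1.0% of TRAJ26 (SD, n = 5 each; not tested). CDR3s of 1 library made up 21.1 ± 4.2% of TRAJ21 counts in CNS4KO and 18.7 ± 1.9% in CNS4Flox libraries, 12.9 ± 1.6% and 14.4 ± 2.0% of TRAJ22, 31.9 ± 12.7% and 35.9 ± 6.0% of TRAJ24, and 20.05 ± 5.31% and 21.2 ± 2.6% of TRAJ26. Again the strains overlapped. In TRAJ26 the CNS4KO range for CDR3s of all libraries was 14.4 to 42.0%. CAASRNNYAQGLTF, one of these CDR3s, held 30.4% of the TRAJ26 counts of CNS4KO 3.
At equal counts, the CDR3s found in at least 3 of 5 libraries of a strain numbered 292 in CNS4KO and 388 in CNS4Flox for TRAJ21, 244 and 326 for TRAJ22, 62.0 and 82.5 for TRAJ24, and 227 and 336 for TRAJ26, as means of 20 random draws. The exact permutation p was 0.0238, 0.0159, 0.135 and 0.00794 in that order, and the adjusted p 0.0369, 0.0289, 0.139 and 0.0176. So 3 of the 4 genes passed, beside 22 of all 31 (71%), all lower in CNS4KO. CNS4KO libraries also had fewer clonotypes to share at these counts, and the part of that in the difference was not tested.
With CDR3s required in all 5 libraries of a strain, all 4 genes passed, with adjusted exact permutation p-values of 0.0447 for TRAJ21 and TRAJ22 and 0.0273 for TRAJ24 and TRAJ26. The numbers were then 70.7 in CNS4KO and 98.7 in CNS4Flox for TRAJ21, 56.1 and 82.25 for TRAJ22, 8 and 16.7 for TRAJ24, and 46.05 and 89.05 for TRAJ26. Without CNS4KO 1, 1 of the 4 genes passed. With all counts kept, none of them passed, although the numbers stayed lower in CNS4KO for each (339 against 441 for TRAJ21 and 330 against 402 for TRAJ26). At equal counts, the mean Jaccard index of amino acid CDR3s between libraries of one strain was 0.174 in CNS4KO and 0.1996 in CNS4Flox for TRAJ21, 0.203 and 0.221 for TRAJ22, 0.113 and 0.131 for TRAJ24, and 0.162 and 0.195 for TRAJ26, and by this index TRAJ21 alone passed (adjusted exact permutation p = 0.0492). Pairs of a CNS4KO and a CNS4Flox library averaged in between for every gene, at 0.182, 0.209, 0.125 and 0.175. For settings other than at least 3 of 5 libraries at equal counts, the share over all 31 genes is not given here.

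CDR3s limited to one strain were few. Of 569 TRAJ21, 469 TRAJ22, 153 TRAJ24 and 537 TRAJ26 CDR3s found in at least 4 libraries, 3, 3, 0 and 1 were in at least 4 CNS4KO libraries and 0 CNS4Flox libraries. This was 0.527, 0.640, 0 and 0.186% of them, beside 0.354% of all 10166 such alpha CDR3s. Those in at least 4 CNS4Flox libraries and 0 CNS4KO libraries numbered 13, 4, 2 and 8, which was 2.28, 0.853, 1.31 and 1.49%, beside 1.495% of all. These counts were taken at full depth, where CNS4KO libraries had 2795 ± 282 distinct clonotypes of the 4 genes and CNS4Flox libraries 3467 ± 343 (SD, n = 5 each), and were not tested.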

How the data were processed

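The authors deposited 1 clonotype table per library, whose count column holds whole-number counts and whose fraction column is, per the file headers, each count over the library total. The sources do not say if a count is a read or a molecule. Genome build mm10 is named in the submitters' processing notes, and the aligner and clonotype caller are not given in the sources used here. Per the labels' protocols, both TCR chains were amplified from total RNA. Replicates were numbered in accession order.

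Entries were assigned to a J gene by their CDR3 end, from a list written from general knowledge. RefSeq's GRCm38.p6 annotation held 38 of the 38 listed TRAJ genes that had any entry. Entries that matched no end (0.675 to 0.885% of counts) were left out. A clonotype was a nucleotide CDR3 of a J gene. Tests covered the 31 TRAJ genes that reached 10 counts in 5 or more libraries. Richness was the rarefied expectation at the smallest class total, and other values at equal counts were means of 20 random draws. Values per library were compared by two-sided exact permutation tests, and counts by edgeR's quasi-likelihood test with alpha totals as library sizes and no TMM, all with Benjamini-Hochberg adjustment over every gene or CDR3 tested and a threshold of 0.05. The SE beside an edgeR log2 fold change was derived as its absolute value over the square root of the test's F statistic. DESeq2 and limma were alternatives. The fits and values were tested on simulated data. Wilson intervals cover counting error only.

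The named CDR3s are, per gene, the 3 with the highest mean share, the 2 with the most nucleotide variants, the largest clonotype of any library of each strain, and any past the abundance test. Largest clonotypes were ranked by share of the gene. The genes, lists and tests were chosen with earlier results of these data known. Software was edgeR 4.0.16, limma 3.58.1 and DESeq2 1.42.0 in R 4.3.3, and scipy 1.17.1, pandas 2.3.3, numpy 2.4.6 and matplotlib 3.10.9 in Python 3.11.15.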

Additional observations from a re-analysis of the deposited data

Results flagged for a closer look

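In 56 groups of 5 libraries, 5 had a highest library far from the next one by Dixon's criterion, and chance flags about 1 in 20 groups. The share of TRAJ22 counts in the 10 largest clonotypes was 43.6% in CNS4KO 1, against 29.4% in the next CNS4KO library, and 29.9% in CNS4Flox 3, against 16.3% in the next CNS4Flox library. TRAJ21 richness at equal counts was 958 clonotypes in CNS4KO 5, against 797 in the next CNS4KO library. Nucleotide variants per TRAJ21 CDR3 were 1.385 in CNS4Flox 1, against 1.313 in the next CNS4Flox library. TRAJ24 made up 2.70% of alpha counts in CNS4Flox 3, against 1.85% in the next CNS4Flox library.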

How the results depend on the processing

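No paired analysis was possible because replicate numbers only follow the order of the samples. Over 484 alternatives for single genes, 418 kept direction and side of the threshold, 29 lost the call, 10 gained it and 27 turned direction; the cause was not tested. The counts of calls that follow are for the 4 genes alone, without the share over all genes or CDR3s tested. The number of the 4 genes past the threshold was 0 for richness without clonotypes of a single count, against 3 as reported and 4 without thinning. It was 1 for the share of the 20 largest clonotypes and 1 with limma, against 0 as reported. For nucleotide variants it was 0 at equal numbers of distinct clonotypes, 0 without single counts and 0 without CNS4KO 5 and CNS4Flox 3, against 3 as reported; it was 3 without thinning too, with TRAJ24 in place of TRAJ22. For shared CDR3s it was 0 without thinning and 1 by Jaccard index, against 3 as reported and 4 in all 5 libraries. Of single CDR3s, 18 passed with detection in at least 3 libraries and 1 with DESeq2, against 0 as reported. Leaving out 1 library at a time, or that pair, gave 2 to 4 genes for richness, 0 to 1 for the 10 largest (1 without CNS4KO 5), 0 to 3 for nucleotide variants (1 without CNS4KO 2 or CNS4Flox 1), 1 to 4 for shared CDR3s (1 without CNS4KO 1) and 0 to 5 CDR3s (5 without CNS4KO 3, 3 without CNS4KO 1). The directions that turned were of differences that did not pass, except nucleotide variants of TRAJ22. Without single counts, usage by counts of TRAJ22 was −0.0450 log2, usage by distinct clonotypes −0.0644 for TRAJ21 and −0.0347 for TRAJ22, TRAJ26 length −0.00134 residues, and matched J bases −0.0753 for TRAJ21, −0.0563 for TRAJ22, 0.126 for TRAJ24 and −0.0120 for TRAJ26. Weighted by counts, length was −0.0562 for TRAJ21 and −0.0505 for TRAJ22, and J bases −0.00758 for TRAJ21 and 0.0121 for TRAJ24. TRAJ24 length was −0.000407 over distinct amino acid CDR3s, and TRAJ22 nucleotide variants 0.00601 at equal distinct clonotypes. Without CNS4KO 5 and CNS4Flox 3, TRAJ24 gave 0.00386 log2 by distinct clonotypes and 0.00377 J bases. With single libraries left out, the ranges were −0.0280 to 0.0523 log2 for TRAJ22 usage by counts, −0.0535 to 0.000921 for TRAJ24 by distinct clonotypes, −0.00278 to 0.0367 and −0.00593 to 0.0257 residues for TRAJ24 and TRAJ26, and −0.0369 to 0.0268 J bases for TRAJ24. TRAJ24 had the fewest counts, 514 to 1355 per library.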
